A study of Mus musculus with 9 samples.

Results

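Myogenic regulatory factors and MEF2 factors are the transcription factors that switch on the genes of skeletal muscle. Here, 9 genes were followed: the basic helix-loop-helix (bHLH) factors Myod1, Myog (myogenin), Myf5 and Myf6 (also known as MRF4), the satellite cell factor Pax7, the MADS-box factors Mef2a, Mef2c and Mef2d, and Mymk (myomaker), a membrane protein needed for the fusion of muscle cells. They were taken by symbol from the 55487 genes of the count table, of which 34376 had a read in at least 1 library, and all 9 were found. Gene expression was measured by sequencing of polyadenylated RNA from whole gastrocnemius, a calf muscle, of wild-type C57BL/6 mice (C57BL/6J in the study's text) whose age was not given in the labels. The Control group (n = 4 libraries) came from mice walking freely in conventional cages. The Unloading group (n = 2) came from mice whose hindlimbs had been kept off the ground by a line on the tail for 10 days. The Reloading group (n = 3) had the same 10 days of unloading and was then back on its feet in the home cage for 1 day, so that unloading is shared by both treated groups. No other agent or allele is given for any group, and the labels call all the mice male, although females are described in the methods of the study. The Y-linked gene Ddx3y had between 1013 and 1993 counts per library and Xist between 0 and 5.

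As background, muscle stem cells (satellite cells) lie beneath the sheath of the muscle fibre and carry Pax7. Myf5 is also a factor of these cells. When they are activated they express Myod1, then Myog as they stop dividing and differentiate. Myf6 is the member of the bHLH family that dominates in mature fibres. The bHLH factors bind E-boxes together with E proteins such as those encoded by Tcf3 and Tcf12, and Id proteins can take those partners away. MEF2 factors bind an A/T-rich element, act together with the bHLH factors, and are held back by class II histone deacetylases and released by calcium and MAP kinase signalling.

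Promoter sequences are shown for the 2 members in which a searched motif lies next to the transcription start and for the member whose transcript fell furthest on reloading. RefSeq promoter entries (build GRCm38.p6, 250 bases before to 10 bases after the first base of the transcript were used) were found for 6 of the 9 members, and none were used for Myod1, Myf6 or Mymk. Each window was searched for E-boxes (CANNTG, which reads the same pattern on both strands). It was also searched on both strands for the MEF2 pattern YTAWWWWTAR (Y is C or T, W is A or T, R is A or G). Capitals mark the matches, and a site that departs from the pattern at any base is not marked. The windows lie at chr1:134289754-134290013 on the plus strand (Myog), chr7:67372849-67373108 on the minus strand (Mef2a) and chr13:83503784-83504043 on the plus strand (the first of 3 Mef2c starts).
Myog: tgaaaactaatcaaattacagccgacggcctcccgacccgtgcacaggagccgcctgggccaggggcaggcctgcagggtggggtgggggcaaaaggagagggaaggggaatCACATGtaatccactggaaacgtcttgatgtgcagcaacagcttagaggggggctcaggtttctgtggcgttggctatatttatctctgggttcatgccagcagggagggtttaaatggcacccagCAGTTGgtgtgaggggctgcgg
Mef2a: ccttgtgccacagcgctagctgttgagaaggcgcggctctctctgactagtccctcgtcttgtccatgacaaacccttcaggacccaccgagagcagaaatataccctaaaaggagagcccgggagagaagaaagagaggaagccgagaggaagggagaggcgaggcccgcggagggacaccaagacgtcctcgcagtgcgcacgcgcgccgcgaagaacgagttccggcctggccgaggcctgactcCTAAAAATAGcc
Mef2c: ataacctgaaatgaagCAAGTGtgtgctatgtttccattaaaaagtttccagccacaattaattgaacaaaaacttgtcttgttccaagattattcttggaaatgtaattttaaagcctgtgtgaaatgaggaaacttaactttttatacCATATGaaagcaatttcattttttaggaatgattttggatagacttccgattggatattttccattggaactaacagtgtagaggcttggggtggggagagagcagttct
In Myog, the E-box CACATG began 138 bases and CAGTTG 12 bases before the start. The Myog window also holds ctatatttat, which departs from the MEF2 pattern only in its last base and so was not marked. In Mef2a, a MEF2 element began 2 bases before the start and ran across it. The first Mef2c window held the E-boxes CAAGTG and CATATG, which began 234 and 100 bases before the start, and the third Mef2c window held CAGATG at 245 bases. No match was found in the windows of Mef2d, Pax7 and Myf5 or in the second Mef2c window. Of all 32851 promoters of the same 260 bases, 67.7% held at least 1 E-box and 33.5% held at least 2. E-boxes are thus common in any window of this length, while 2.98% of the promoters held a match to the MEF2 pattern. These matches are a description of the letters and do not show binding.

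All 9 genes are protein-coding, and their positions are those of GRCm38 in the count table. Myod1 lies on chromosome 7 from 46376474 to 46379099 and Myog on chromosome 1 from 134289989 to 134292548, both on the plus strand. Myf5 (chromosome 10, 107482908 to 107486134) and Myf6 (chromosome 10, 107492853 to 107494737) are neighbours on the minus strand with 6718 bases between them. Pax7 lies on chromosome 4 from 139737062 to 139833528 and Mymk on chromosome 2 from 27061636 to 27072179, both on the minus strand. Mef2a (chromosome 7, 67231163 to 67372858, minus strand), Mef2c (chromosome 13, 83504034 to 83667080, plus strand) and Mef2d (chromosome 3, 88142372 to 88172086, plus strand) are long genes with 12, 31 and 7 annotated transcripts in GENCODE M21. Values are read pairs over all exons of a gene, so the isoforms of a gene cannot be told apart. Counting did not use strand: 531 bases (8.87%) of the Mef2d exons are shared with the antisense gene 1700113A16Rik, which had between 1 and 9 counts, and 302 bases (2.06%) of the Mef2a exons with the antisense gene Lysmd4, which had between 114 and 229 counts.

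Libraries held between 9252443 and 19612101 read pairs in genes. Levels are given as counts per 1000000 read pairs after scaling with TMM factors (trimmed mean of M-values), written as TMM-scaled CPM or CPM. Levels of different genes are compared as TMM-scaled reads per kilobase of summed exon length per 1000000 (RPKM), except where reads or CPM are named. Differences were tested with edgeR's quasi-likelihood F-test (two-sided) on 14851 genes that passed a filter on low counts, with Benjamini-Hochberg adjustment over all of them and a threshold of 0.05. Of the 9 genes, 8 passed the filter, and Mymk did not. The labelled tissue was checked against its markers: the 10 fibre markers together stood at 156566 to 172249 CPM in Control, 155978 to 163505 in Unloading and 110162 to 122761 in Reloading. Skin genes (keratin genes and Lor, which encodes loricrin) were also present in Control 2 (3508 counts in sum) and Reloading 1 (1638 counts), against 32 to 53 counts in the other libraries. Leaving out both changed no call of the 8 tested genes in any of the 3 comparisons.

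In the Control muscle, Myf6, Mef2c and Mef2d were the most abundant of the 9 genes per exon length. Myf6 stood at 62.8 ± 3.63 RPKM (SD, n = 4), Mef2c at 45.1 ± 2.65, Mef2d at 39.6 ± 2.69, Mef2a at 9.82 ± 0.615 and Myod1 at 8.69 ± 1.98. Below them came Myog at 2.15 ± 0.411, Myf5 at 0.718 ± 0.134, Pax7 at 0.625 ± 0.111 and Mymk at 0.0420 ± 0.0541 RPKM. In this order, the ranges of Mef2d (36.0 to 41.8) and Mef2c (42.2 to 47.9) did not overlap, while those of Mef2a (9.09 to 10.5) and Myod1 (7.50 to 11.7) did, as did those of Myf5 (0.540 to 0.863) and Pax7 (0.480 to 0.730). The Mef2a and Mef2c lengths sum many alternative exons (14681 and 15715 bases), so that a shorter muscle transcript would put their per-length levels higher than given here. In mean CPM over the 9 libraries, which is not corrected for exon length, Mef2c lay above 99.0% of the tested genes. Mef2d lay above 97.2%, Mef2a above 93.9% and Myf6 above 90.2%, so that Mef2a ranked above Myf6 here and below it per exon length. Myod1 lay above 63.6%, Myog above 36.9%, Pax7 above 31.0% and Myf5 above 17.9%.

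**Figure D1:**
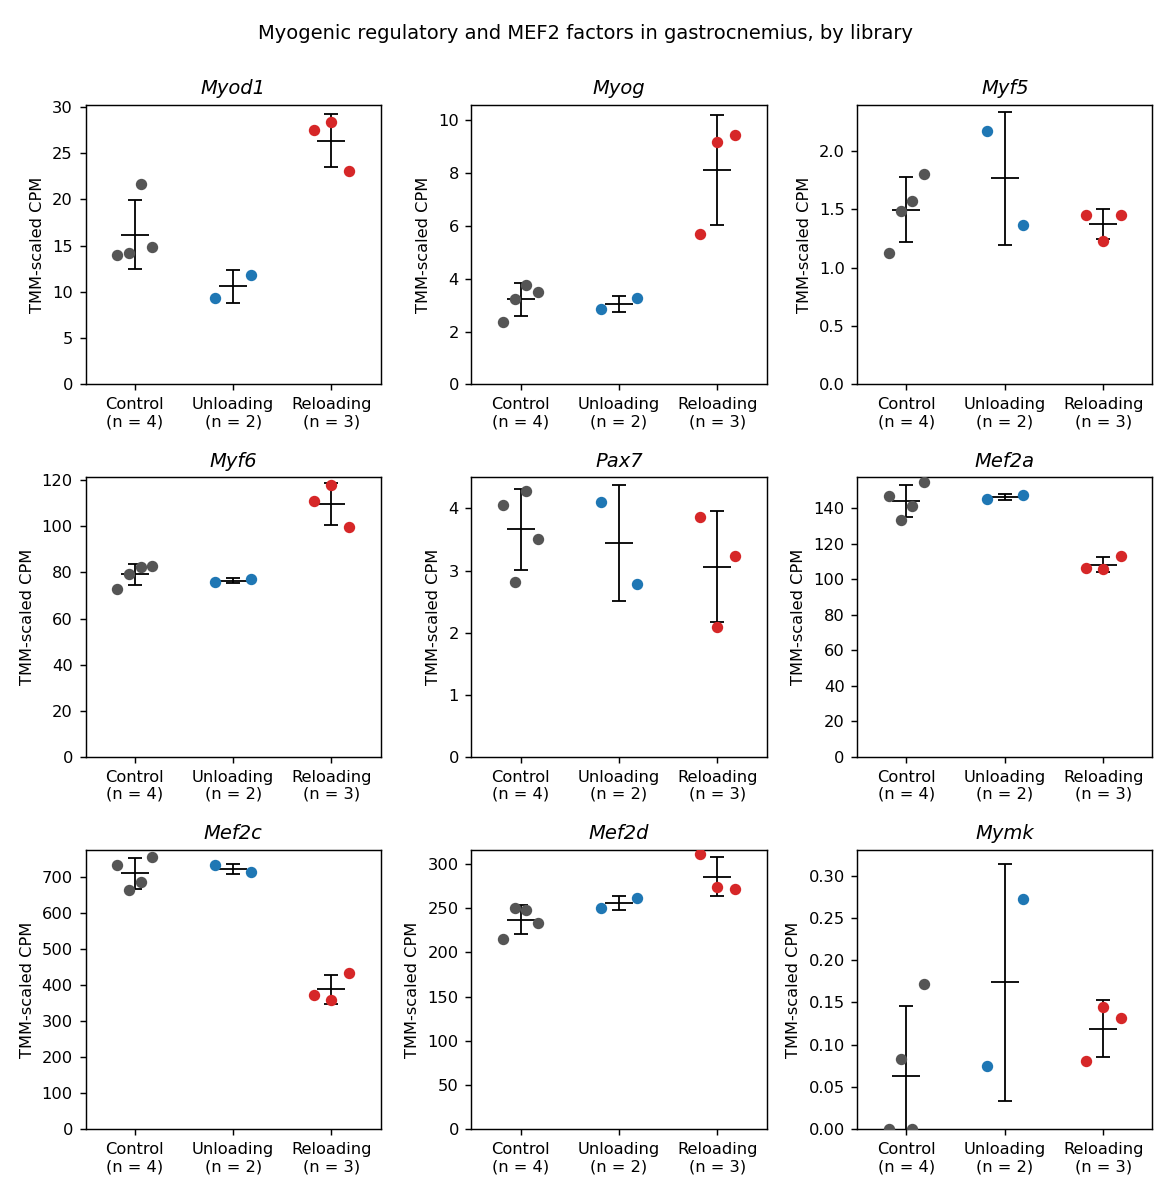
TMM-scaled CPM (linear axes from 0) of the 9 genes in every library of Control (n = 4), Unloading (n = 2) and Reloading (n = 3). Points are libraries, horizontal marks are group means and bars are 1 SD. The Reloading points of Myod1, Myog, Myf6 and Mef2d lie above all points of the other groups. Those of Mef2a and Mef2c lie below all of them, and Mymk rests on 0 to 5 counts per library.

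On the return to loading, Myod1, Myog and Myf6 rose and Mef2a and Mef2c fell within 1 day. Against Unloading, 3 of the 8 tested genes were higher and 2 lower. Of all 14851 tested genes, 18.5% were called higher and 19.0% lower in this comparison. The median log2 fold change was 0.0026 over the 8 genes and 0.03 over all tested genes, so the 8 genes as a group had no common direction.

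Myod1, the factor that commits cells to the muscle lineage, stood at 9.34 and 11.8 CPM in Unloading 1 and 2 and at 27.5, 28.4 and 23.1 CPM in Reloading 1 to 3. The groups did not overlap, and every Reloading library held at least 342 read pairs of the gene. The log2 fold change was 1.30 ± 0.18 (SE), or 2.46-fold (edgeR adjusted p = 6.22e-05). Myod1 was also higher than in Control, where the 4 libraries stood at 14.0, 14.2, 21.7 and 14.8 CPM (log2 fold change 0.69 ± 0.143, edgeR adjusted p = 0.00123). The lowest Reloading library (23.1 CPM) was just above the highest Control library (Control 3, 21.7 CPM).

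Myog, which drives the step from myoblast to differentiating muscle cell, was read at 2.84 and 3.27 CPM in Unloading and at 5.71, 9.17 and 9.45 CPM in Reloading. These are low levels, with 38 and 60 counts in the Unloading libraries and 71, 127 and 143 in the Reloading libraries. The rise was 2.65-fold (log2 fold change 1.40 ± 0.229, edgeR adjusted p = 0.00025), and Reloading 1 was clearly the lowest of the 3. Against Control (2.36, 3.23, 3.78 and 3.51 CPM) the rise was 2.49-fold (log2 fold change 1.31 ± 0.192, edgeR adjusted p = 6.08e-05).

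Myf6, the abundant bHLH factor of adult fibres, rose less in relative terms but from a much higher level. It stood at 75.8 and 77.2 CPM in Unloading and at 111, 118 and 99.8 CPM in Reloading, with no overlap. The log2 fold change was 0.52 ± 0.087, or 1.43-fold (edgeR adjusted p = 0.000309). Against Control (72.7 to 82.7 CPM) it was 1.38-fold higher (edgeR adjusted p = 0.000103).

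Myf5, a bHLH factor of satellite cells, and Pax7, their lineage marker, did not pass the test in any comparison. Myf5 was read at 2.17 and 1.36 CPM in Unloading, at 1.45, 1.23 and 1.45 CPM in Reloading and at 1.13 to 1.80 CPM in Control. Its log2 fold change was -0.33 ± 0.29 from Unloading to Reloading (edgeR adjusted p = 0.400) and -0.14 ± 0.26 from Control to Reloading (edgeR adjusted p = 0.701). Pax7 was read at 4.11 and 2.78 CPM in Unloading, at 3.86, 2.09 and 3.24 CPM in Reloading and at 2.81 to 4.28 CPM in Control. Its log2 fold changes were -0.15 ± 0.265 (edgeR adjusted p = 0.680) and -0.26 ± 0.229 (edgeR adjusted p = 0.380). Both genes rest on few reads, with 10 to 29 counts per library for Myf5 and 29 to 60 for Pax7, so that a small change was not detectable at this depth. In whole muscle, fewer cells of a type and less RNA per cell cannot be told apart.

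Mymk, the fusogen of differentiating myoblasts, was hardly detected. It had 0, 1, 0 and 2 counts in Control, 1 and 5 in Unloading and 1, 2 and 2 in Reloading. Over each group this is 3, 6 and 5 counts, and no difference was detectable at this depth: without the filter, edgeR gave adjusted p-values of 0.769 (Reloading against Unloading), 0.669 (Unloading against Control) and 0.670 (Reloading against Control). Mymx, which encodes the small partner of myomaker in fusion, likewise had 0 to 5 counts per library.

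Mef2c, the MEF2 gene with the most reads, fell furthest. It stood at 732 and 711 CPM in Unloading and at 372, 358 and 432 CPM in Reloading, and the gap between the groups was several times the spread within them. The log2 fold change was -0.90 ± 0.0873, or 1.86-fold lower (edgeR adjusted p = 2.89e-06). Control libraries stood at 733, 664, 684 and 753 CPM, close to Unloading, and the log2 fold change of Reloading against Control was -0.87 ± 0.0756 (edgeR adjusted p = 4.58e-07).

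Mef2a, a broadly expressed MEF2 gene, fell less. It stood at 145 and 148 CPM in Unloading and at 106, 106 and 113 CPM in Reloading. The log2 fold change was -0.44 ± 0.0775, or 1.35-fold lower (edgeR adjusted p = 0.000504), and against Control (133 to 155 CPM) it was -0.41 ± 0.0663 (edgeR adjusted p = 0.000146). The TMM factors were 1.106 to 1.13 in Reloading and 0.928 to 0.960 in the other groups, and with library totals alone the fall from Unloading was -0.19 on the log2 scale (edgeR adjusted p = 0.0530), while the median over all genes moved to 0.27.

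Mef2d did not follow the other MEF2 genes. It stood at 251 and 261 CPM in Unloading and at 311, 274 and 272 CPM in Reloading, without overlap. The log2 difference of 0.16 ± 0.0858 did not pass the test (edgeR adjusted p = 0.163). It passed with library totals alone (log2 fold change 0.41, edgeR adjusted p = 0.00153). Against Control, at 215, 250, 248 and 234 CPM, Mef2d was 1.20-fold higher in Reloading (log2 fold change 0.27 ± 0.0716, edgeR adjusted p = 0.00689).

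**Figure D2:**
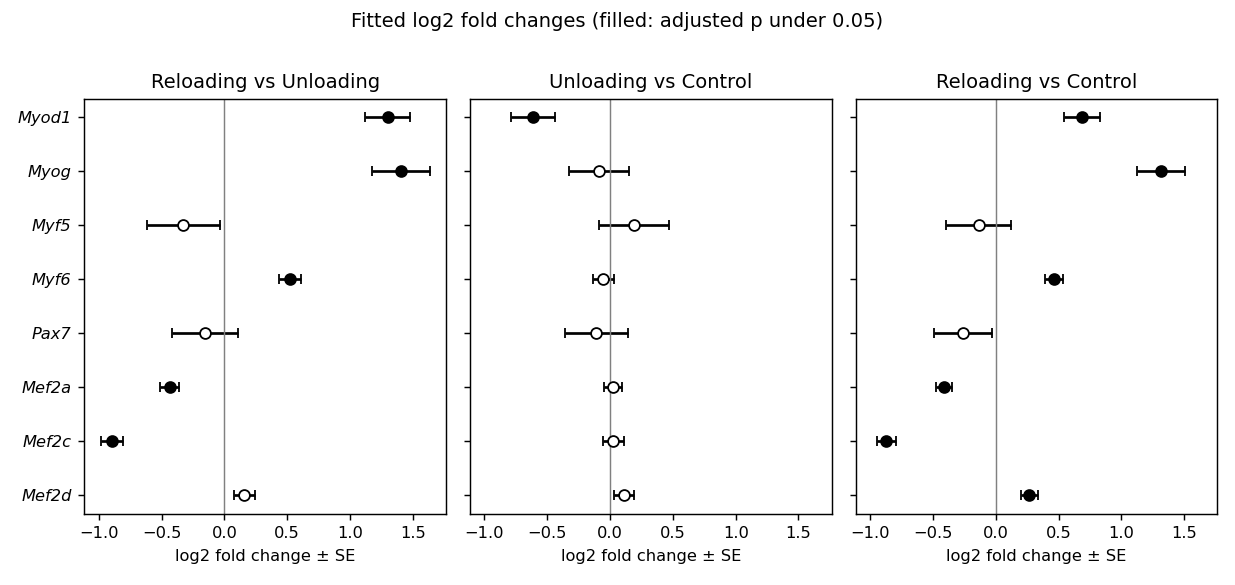
Log2 fold changes (x axis) of the 8 tested genes in the 3 comparisons, with bars of 1 SE. Filled points passed an adjusted p of 0.05: 3 higher and 2 lower for Reloading against Unloading, 1 lower for Unloading against Control, and 4 higher and 2 lower for Reloading against Control.

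In Reloading against Control, 4 of the 8 tested genes were higher (Myod1, Myog, Myf6 and Mef2d) and 2 lower (Mef2a and Mef2c). Of all tested genes, 22.1% were called higher and 21.3% lower. These 6 calls held under each of the 18 alternative settings that were tried, including every fit that left out 1 library. The comparison shares its Reloading libraries with that against Unloading, and so the results are not independent of each other.

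Few of these genes differed detectably from Control after 10 days of unloading. Of the 8 tested genes, 0 were higher and 1, Myod1, was lower; DESeq2 likewise called 0 higher, and 0 were higher at an unadjusted edgeR p under 0.05. In this comparison 4.40% of all tested genes were called higher and 5.50% lower. Myod1 stood at 9.34 and 11.8 CPM in Unloading, below all 4 Control libraries (14.0 to 21.7 CPM), with a log2 fold change of -0.61 ± 0.176, or 1.53-fold lower (edgeR adjusted p = 0.0391). This call was near the threshold and was lost without Control 3 (-0.43, edgeR adjusted p = 0.0789), without Unloading 1 (-0.46, edgeR adjusted p = 0.375), without Unloading 2 (-0.80, edgeR adjusted p = 0.0511) and without Reloading 2, which only enters the shared estimate of the spread (-0.61, edgeR adjusted p = 0.0519). It was also lost with a replicate block by title number (-0.60, edgeR adjusted p = 0.101).

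For the other tested genes the fitted log2 differences between Unloading and Control were small, with errors of unequal size. Those of Mef2a (0.02 ± 0.0738), Mef2c (0.03 ± 0.0836) and Myf6 (-0.05 ± 0.0826) had small errors, and their group means differed by 1.63%, 1.85% and -3.61% on the fitted scale. Mef2d was at 0.11 ± 0.081. The values of Myog (-0.09 ± 0.241), Myf5 (0.19 ± 0.276) and Pax7 (-0.11 ± 0.25) had errors larger than themselves. Changes of the size of these errors, in either direction, could not be detected. The edgeR adjusted p-values of these 7 genes lay between 0.424 (Mef2d) and 0.877 (Mef2a).

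The make-up of each family by RPKM shows the same changes as shares. Among the 4 bHLH genes, Myf6 took 84.5% ± 2.13 of the summed level in Control (SD, n = 4), 87.6% ± 0.974 in Unloading (n = 2) and 81.1% ± 0.865 in Reloading (n = 3). Myod1 took 11.6% ± 1.98, 8.22% ± 1.17 and 13.2% ± 0.600, and Myog 2.88% ± 0.362, 2.95% ± 0.225 and 5.10% ± 1.44. The summed level of the 4 genes was 74.3 ± 5.46, 69.1 ± 1.67 and 107 ± 8.51 RPKM, so that the rise of the family in Reloading was carried mostly by Myf6 in absolute terms. The ratio of Myf6 to Myod1 was 12.0 and 9.61 in the Unloading libraries, 5.59 to 8.22 in Control and 5.95 to 6.38 in Reloading.

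In the MEF2 family, the level of Mef2c relative to Mef2d fell on reloading. In reads Mef2c stayed above Mef2d (387 ± 39.4 against 286 ± 22.0 CPM in Reloading), and per summed exon length it lay below. Mef2c took 47.7% ± 2.41 of the summed RPKM in Control, 46.6% ± 1.13 in Unloading and 30.9% ± 2.89 in Reloading, while Mef2d took 41.9% ± 2.91, 43.3% ± 1.06 and 59.8% ± 3.24. The per-length ratio of Mef2c to Mef2d was 1.30, 1.01, 1.05 and 1.23 in Control, 1.11 and 1.04 in Unloading and 0.455, 0.498 and 0.606 in Reloading. This ratio is taken within a library and does not depend on the scaling between libraries, although its absolute value depends on the exon lengths. The summed level of the 3 genes was 94.5 ± 2.21 RPKM in Control, 98.6 ± 0.445 in Unloading and 79.7 ± 3.56 in Reloading.

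**Figure D3:**
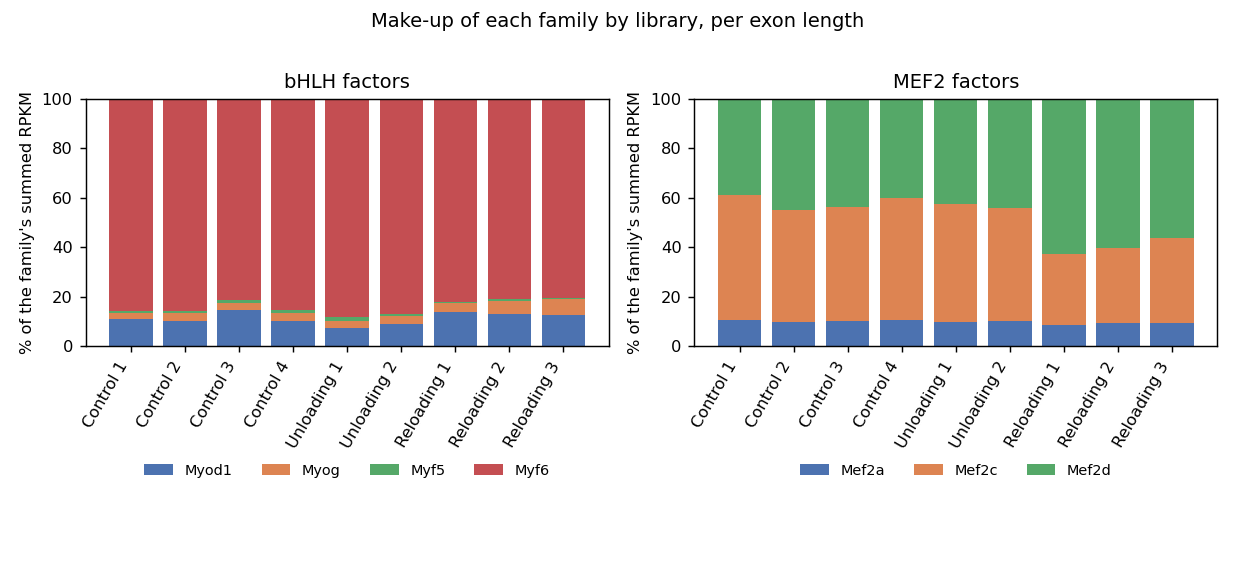
Share (%, y axis) of each gene in the summed RPKM of the 4 bHLH genes (left) and the 3 MEF2 genes (right) in each of the 9 libraries. Mef2d takes 56.3 to 62.7% of the MEF2 level in the 3 Reloading libraries and 38.9 to 44.9% in the 6 others.

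Transcripts of the Id genes, whose proteins can sequester the E protein partners of the bHLH factors, were higher in the same Reloading libraries as those of Myod1 and Myog. Of 15 genes listed as inhibitors of the family, 13 were tested, and 4 were higher and 2 lower in Reloading than in Unloading. The 4 higher genes were the Id genes. Id1 stood at 4.11 and 4.47 CPM in Unloading and at 21.3, 24.4 and 15.1 CPM in Reloading (4.69-fold, edgeR adjusted p = 1.71e-05), against 2.59 to 6.94 CPM in Control. Id3 went from 8.74 and 9.93 CPM to 22.8, 20.4 and 16.6 CPM (2.12-fold, edgeR adjusted p = 6.74e-05). Id4 (2.82-fold, edgeR adjusted p = 0.00344) and Id2 (1.69-fold, edgeR adjusted p = 0.0421) rose from levels under 2 CPM. The count of higher inhibitors against Unloading was 3 without the filter, by DESeq2 and without both libraries with skin transcripts. The lower genes were Bhlhe40 and Bhlhe41, which encode bHLH repressors also known from the circadian clock. The list's median log2 fold change was 0.52, beside 0.03 over all genes. Here and in the lists that follow, counts against Unloading stand beside 18.5% higher and 19.0% lower over all tested genes. Counts in Reloading against Control stand beside 22.1% higher and 21.3% lower, and those in Unloading against Control beside 4.40% higher and 5.50% lower.

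Bhlhe40 was the inhibitor that rose with unloading, from 142 to 184 CPM in Control to 224 and 232 CPM in Unloading (1.45-fold, edgeR adjusted p = 0.00319), and it stood at 148, 154 and 138 CPM in Reloading. Bhlhe41 was lower in Unloading than in Control (1.34-fold, edgeR adjusted p = 0.0282), a call lost without Control 1 or Unloading 1. Against Control, 5 inhibitors were higher in Reloading, the 4 Id genes and Snai1 (1.99-fold, edgeR adjusted p = 0.00970), and 1, Bhlhe41, was lower. Without both libraries that held skin transcripts the count of higher inhibitors against Control was 3.

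The E proteins and coactivators on which the bHLH factors act moved in both directions. Of 7 listed partners, 2 were higher and 3 lower in Reloading than in Unloading. Tcf3, which encodes E12 and E47, was 1.32-fold higher (edgeR adjusted p = 0.0270) and Tcf12, encoding HEB, had a log2 fold change of 0.23 (edgeR adjusted p = 0.0494). Both higher calls were lost in DESeq2, without either Unloading library, without Reloading 1 and without both libraries with skin transcripts. Only 1 was left under every other setting tried except library totals alone, where 3 partners were higher. Kat2b, encoding the acetyltransferase PCAF, fell from 143 and 124 CPM to 64.0, 77.0 and 83.3 CPM (1.78-fold lower, edgeR adjusted p = 3.73e-05). The chromatin remodelling subunit gene Smarcd3 (1.29-fold lower) and the acetyltransferase gene Ep300 (1.28-fold lower) were the others. Against Control, Tcf3 (1.43-fold) and Tcf12 (1.27-fold) were higher, and Kat2b, Smarcd3 and Ep300 lower. In Unloading against Control edgeR called 0 of the 7 partners, with 2 higher at an unadjusted p under 0.05 and 2 higher by DESeq2.

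**Figure D4:**
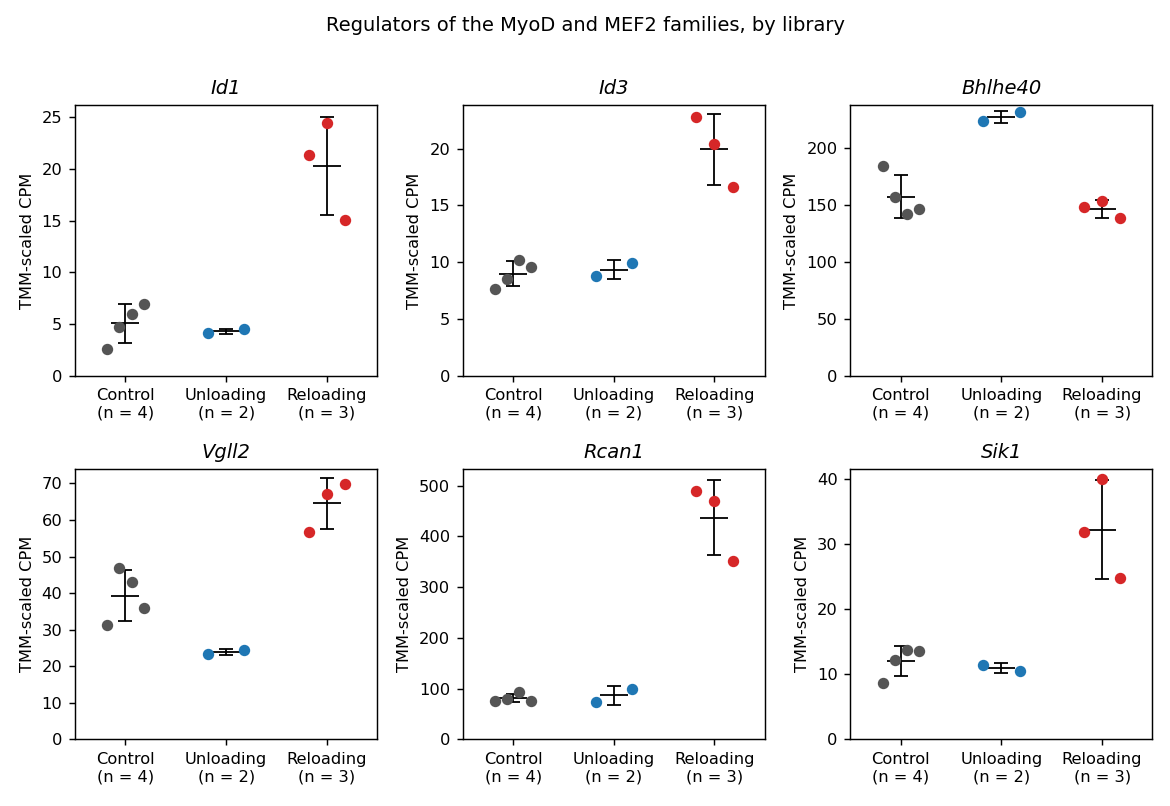
TMM-scaled CPM (linear axes from 0) of Id1, Id3, Bhlhe40, Vgll2, Rcan1 and Sik1 in each library, with points for libraries, horizontal marks for group means and bars of 1 SD. In Id1, Id3, Vgll2, Rcan1 and Sik1 the 3 Reloading libraries lie above all others, and in Bhlhe40 and Vgll2 the 2 Unloading libraries stand apart from Control.

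Factors upstream of the family, which include Eya, Tead and sine oculis homeobox genes, showed 4 higher and 7 lower genes of 18 tested in Reloading against Unloading. The lower count was 4 without Unloading 1 or Reloading 2, and the higher count was 2 without Unloading 2. Vgll2, a muscle-enriched cofactor of TEAD proteins, had the same order of groups as Myod1. It stood at 31.4 to 46.9 CPM in Control, 23.4 and 24.4 CPM in Unloading and 56.7, 67.2 and 69.9 CPM in Reloading. It was 1.65-fold lower in Unloading than in Control (edgeR adjusted p = 0.00519) and its log2 fold change from Unloading to Reloading was 1.44 ± 0.143 (edgeR adjusted p = 3.45e-06). Six5 was 1.87-fold higher in Reloading, while Six2 was 1.87-fold and Zbtb18 1.66-fold lower. In Unloading against Control, 6 upstream genes were lower, among them Six4 (1.42-fold), and 1, the forkhead gene Foxk1, was higher (1.41-fold). This count of 6 was 0 without Unloading 1 and 3 without Unloading 2.

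Against Control, 3 upstream genes were higher and 9 lower in Reloading (5 lower without Reloading 1), among the latter Zbtb18 (1.59-fold), Six2 (1.43-fold) and Tead1 (1.36-fold), which encodes a TEAD factor. Over all tested genes, 22.1% were called higher and 21.3% lower against Control. The split of the upstream genes between directions depended on the scaling. With library totals alone it was 7 higher and 3 lower against Unloading and 6 higher and 3 lower against Control, with the all-gene medians at 0.27 and 0.25.

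Among genes that control MEF2 activity, Rcan1 and Sik1 changed most on reloading. Of 20 tested genes, 5 were higher and 6 lower in Reloading than in Unloading, and 3 were lower without Unloading 1. Rcan1, an inhibitor of calcineurin, rose from 73.5 and 100 CPM to 489, 469 and 352 CPM (5.02-fold, edgeR adjusted p = 7.08e-08), with 75.7 to 93.8 CPM in Control. Sik1, a kinase that phosphorylates class II histone deacetylases, rose from 11.5 and 10.5 CPM to 31.9, 40.1 and 24.9 CPM (2.94-fold, edgeR adjusted p = 2.51e-05). Mapk7, which encodes ERK5, a kinase that activates MEF2 proteins, was 1.77-fold higher, and Prkd1, encoding protein kinase D1, was 1.66-fold lower. With library totals alone the counts were 10 higher and 1 lower.

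Map2k6, which encodes an activator of p38 MAP kinase, was lower in both treated groups. It stood at 33.5 to 35.1 CPM in Control, at 17.8 and 20.7 CPM in Unloading (1.77-fold lower, edgeR adjusted p = 0.000357) and at 16.1, 14.0 and 17.4 CPM in Reloading (2.16-fold lower than Control, edgeR adjusted p = 2.75e-07). The related kinase gene Map2k3 was 1.26-fold higher in Unloading than in Control, as was Prkd1 (1.69-fold). These 2 calls became 1 without any single Control library, Unloading 2, Reloading 2 or Reloading 3, and 0 without Unloading 1. In Reloading against Control, 6 MEF2 regulators were higher and 4 lower, and with library totals alone 12 and 3.

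Genes of cell adhesion, membrane repair and actin remodelling that take part in myoblast fusion were mostly higher on reloading, although both fusogens were near 0. Of 19 tested genes of the fusion list, 11 were higher and 1 lower in Reloading than in Unloading, with a median log2 fold change of 0.40 beside 0.03 over all genes. Over all tested genes the shares were 18.5% higher and 19.0% lower. Without Unloading 1 the count of higher fusion genes was 6. Dysf, encoding the membrane repair protein dysferlin, went from 77.2 and 76.0 CPM to 158, 151 and 146 CPM (1.98-fold, edgeR adjusted p = 5.15e-07). Itgb1, encoding integrin β1, was 1.77-fold and Dock1, encoding a Rac activator, 1.76-fold higher. Adam12 was 3.39-fold higher, from 4 and 6 counts to 12, 21 and 12. Neo1, encoding neogenin, was the lower gene. Against Control, 11 were higher and 0 lower by edgeR, with 1 lower at an unadjusted p under 0.05 and 0 by DESeq2.

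After unloading, Cdh15 (M-cadherin, 1.35-fold) and Neo1 (1.20-fold) were higher and Jam2 was lower (1.31-fold). The 2 higher calls became 1 without any single Control library or Unloading 2 and 0 without Unloading 1, and the lower call was lost without Control 1, Control 3, Unloading 1 or Unloading 2.

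**Figure D5:**
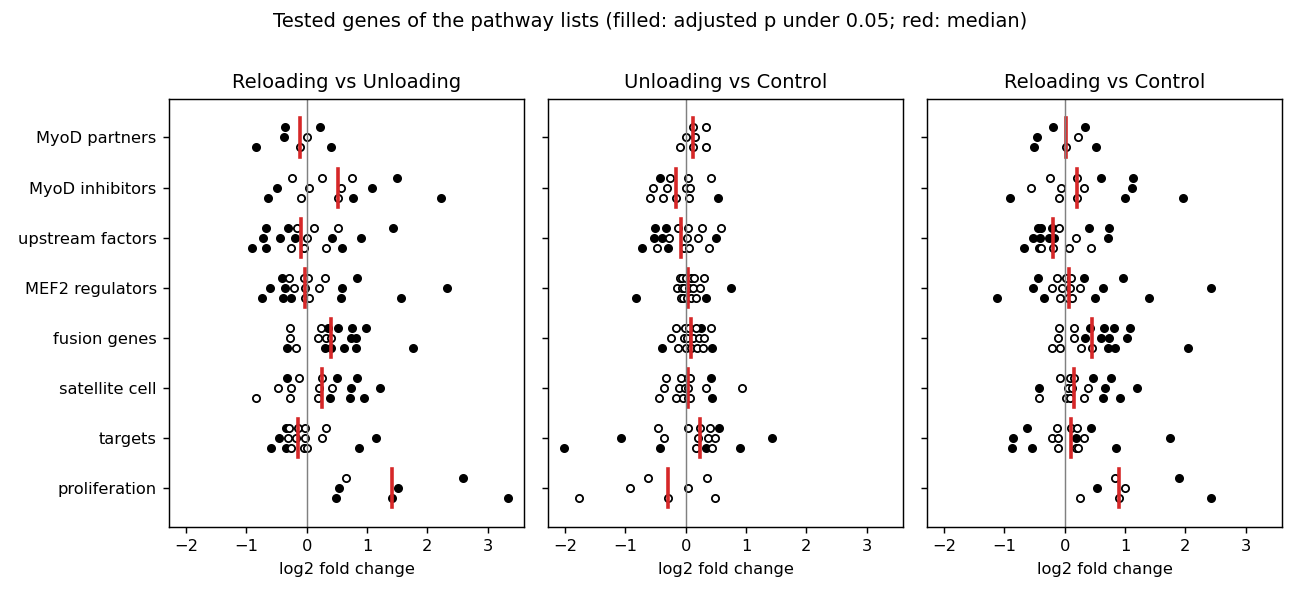
Log2 fold changes (x axis) of each tested gene of 8 pathway lists (rows) in the 3 comparisons, where filled points passed an adjusted p of 0.05 and red marks are list medians. On reloading, the fusion list (11 higher, 1 lower against Unloading) and the proliferation list (6 higher, 0 lower) lie mostly to the right of 0, and the upstream list (4 higher, 7 lower) spreads to both sides.

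Genes listed as markers of satellite cells were in part higher on reloading, unlike Pax7. Of 17 tested, 7 were higher and 1 lower in Reloading than in Unloading, with a median log2 fold change of 0.25. Notch1 (2.31-fold), Vcam1 (1.93-fold), Heyl (1.78-fold) and Notch3 (1.66-fold) were called higher, and all 4 are also known from vascular cells. The lower gene was Spry1, a marker of quiescence, and this call was lost in DESeq2, with library totals alone, without the filter, with a replicate block by description number, without Control 3, and without any 1 of Unloading 1, Unloading 2, Reloading 1 and Reloading 2. Calcr, a receptor gene typical of quiescent satellite cells, had 3 to 10 counts per library and was not tested. In Unloading against Control, Cdh15 and Itga7 (1.33-fold) were higher, of which 1 call was left without Control 1 or Control 4 and 0 without Unloading 1. Against Control, 6 were higher and 1, again Spry1, lower in Reloading, with Notch1 at 2.29-fold and Itga7 at 1.90-fold.

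Genes of cell division were mostly higher in Reloading than in Unloading. Over the 9 libraries, only 4 of the list had a mean of at least 1 CPM, among them Pcna at 19.2 CPM in Control. Of 11 listed, 7 were tested, and 6 were higher and 0 lower in Reloading than in Unloading by edgeR, with 0 lower at an unadjusted p under 0.05 and 0 by DESeq2. Ccnd1, encoding cyclin D1, went from 1.35 and 2.02 CPM to 21.7, 18.2 and 12.9 CPM (10.1-fold, edgeR adjusted p = 4.04e-07). Top2a (6.05-fold), Mki67 (2.87-fold) and Mcm5 (2.67-fold) were also called higher, from low levels. Their means went from 0.157 to 1.02 CPM (Top2a), from 0.398 to 1.12 CPM (Mki67) and from 1.27 to 3.43 CPM (Mcm5). The folds of Top2a and Mki67 thus rest on few reads in the 2 Unloading libraries. The count of higher genes was 5 by DESeq2 and 4 without both libraries with skin transcripts. Cdk1, Ccnb1, Ccnb2 and Birc5 had at most 7 counts in any library. Against Control, Ccnd1, Mcm5 and Pcna passed the test. Between Unloading and Control edgeR called 0, with 2 lower at an unadjusted p under 0.05 and 1 lower by DESeq2.

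Markers of other cell types moved in the same libraries. In Reloading, the 10 endothelial markers together stood at 342 to 429 CPM, against 204 to 240 in Control and 207 to 211 in Unloading, and 9 of 10 were higher than in Unloading. The 11 macrophage markers stood at 163 to 185 CPM, against 76.0 to 93.9 and 77.3 to 78.2, with 10 of 11 higher. The 8 smooth muscle markers stood at 419 to 449 CPM, against 336 to 376 and 395 to 436, with 6 higher and 1 lower. The 6 Schwann cell markers stood at 89.0 to 119 CPM, against 36.3 to 56.3 and 39.7 to 51.6, with 4 higher. The 7 fibro-adipogenic markers were at 964 to 984 CPM in Reloading, against 973 to 1157 in Control and 1463 to 1519 in Unloading, with 1 higher and 3 lower. Most of this sum was Gsn, with means of 672.5 CPM in Control, 1011 in Unloading and 583.5 in Reloading. Dcn followed at 227, 341 and 242 CPM. From Control to Unloading, Pdgfra went from 14.6 to 22.3 CPM and Ly6a from 38.6 to 32.1 CPM. Dpt (37.8 and 37.1 CPM) and Lum (12.4 and 12.8 CPM) hardly differed between these groups. Of the 10 muscle fibre markers, 7 were lower in Reloading than in Unloading, and the 6 neutrophil markers together were at most 5.74 CPM in any library, with 0 of 2 tested genes called by edgeR, 0 at an unadjusted p under 0.05 and 0 by DESeq2. In Unloading against Control, 4 fibre and 2 endothelial markers were lower, 3 fibro-adipogenic markers and 1 smooth muscle marker were higher, and edgeR called 0 macrophage and 0 Schwann cell markers (4 macrophage markers were lower at an unadjusted p under 0.05, and DESeq2 called 0 of either). Without Unloading 1 the lower counts were 1 fibre and 0 endothelial markers, and the smooth muscle call was lost without Unloading 1, Reloading 2 or any 1 of Control 1 to Control 3. Whether these shifts have a part in the changes of the myogenic and MEF2 genes was not tested.

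Genes known as targets of the bHLH and MEF2 factors did not move as a group. Of 17 tested, 2 were higher and 4 lower in Reloading than in Unloading. The higher genes, Actc1 (cardiac α-actin) and Myh3 (embryonic myosin), are both of the developmental programme and had fallen on unloading. Actc1 stood at 290 to 363 CPM in Control, 64.5 and 96.3 CPM in Unloading (4.02-fold lower, edgeR adjusted p = 0.000301) and 263, 149 and 126 CPM in Reloading (2.22-fold higher than Unloading, edgeR adjusted p = 0.00161). Myh3 was 2.10-fold lower in Unloading than in Control and 1.82-fold higher in Reloading than in Unloading. Ckm (muscle creatine kinase, 1.51-fold) and Myl1 (1.37-fold) were among the lower genes on reloading.

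Other targets rose already with unloading. Cdkn1a, encoding the cell cycle inhibitor p21, stood at 6.63 to 12.8 CPM in Control, 26.3 and 19.9 CPM in Unloading (2.69-fold, edgeR adjusted p = 0.000928) and 33.5, 25.5 and 27.4 CPM in Reloading. Chrnb1, encoding a subunit of the acetylcholine receptor, stood at 23.9 to 26.8 CPM in Control, 56.3 and 41.1 CPM in Unloading (1.87-fold, edgeR adjusted p = 0.000463) and 41.4, 48.2 and 50.7 CPM in Reloading. In total, 4 targets were higher and 3 lower in Unloading than in Control, and 4 higher and 4 lower in Reloading than in Control. Without Unloading 1, there were 2 higher and 1 lower in Unloading than in Control. Against Unloading, there were 1 higher and 2 lower in Reloading without Unloading 1 or without Reloading 3. With library totals alone, the counts in Reloading were 4 higher and 1 lower against Unloading and 9 higher and 3 lower against Control.

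The genes whose log2 CPM was most like that of each factor over the 9 libraries were looked up among 9857 expressed genes, as a description. For genes that differ between the 3 groups, likeness here is mostly that of the groups. Each value is among the 2 highest of 9857 over 9 libraries, so it is high by selection, and none was tested. Myf6 was most like Sik1 (Pearson's r = 0.996) and Id1 (r = 0.988), both described above. Myod1 was most like Cox8a (r = 0.972) and Aldh18a1 (r = 0.968), and Myog was most like Nbeal2 (r = 0.974) and Otulin (r = 0.971). Mef2c was most like Oat (r = 0.996) and Abcd2 (r = 0.993), and Mef2a most like Rnf34 (r = 0.996) and Asb15 (r = 0.991). Mef2d was most like Cep170b (r = 0.979) and Fbxl6 (r = 0.976). The best values were lower for Myf5 (Ptpdc1, r = 0.912, and Tent2, r = 0.889) and Pax7 (Rnf14, r = 0.911, and Zfp174, r = 0.894), the 2 tested genes with the fewest reads.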

How the data were processed

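RNA from gastrocnemius was poly-A enriched and sequenced by the authors. Per the labels and the file headers, reads were aligned with STAR 2.7.3a to GRCm38.p6 and read pairs were counted per gene with featureCounts 2.0.3, without strand. The labels call the reads paired, whereas the study's methods describe single reads. The deposited table holds raw counts for 55487 genes and a length, the summed exon bases of each gene. The authors' 3 DESeq2 tables also hold fold changes and p-values of their own comparisons, which were not used. From 1 of them the gene symbols and the mean signal per gene (deposited counts divided by size factors) were read, and that mean was matched within 1% for all 29316 genes.

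The test of the counts was that of edgeR 4.0.16 in R 4.3.3 (filterByExpr, minimum count 10, minimum total 15, TMM, 1 quasi-likelihood fit over 9 libraries with group as the term). SE were derived from the F statistic, and log2 CPM had a prior count of 2. Variation between libraries of a group was 0.0927 (common biological coefficient of variation). Alternatives were no filter, library totals, RLE size factors, DESeq2 1.42.0, a robust fit, only the groups compared, both replicate blocks, each library left out, and both libraries with skin transcripts left out. The labels do not say that libraries came from separate mice, so p-values measure the spread between these libraries. Counts per library set the precision for low genes, and intervals cover the libraries measured here.

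All 9 genes are described in all comparisons. From each other list, up to 4 genes with the largest fold change among those past the threshold with no overlap between groups are named, and genes of counts of 5 or fewer or singled out beyond that were chosen after their values were seen. Likeness was read for the 2 genes with the highest r, among genes with a mean log2 CPM of at least 2. The members and lists were chosen with earlier results of these data known. Figures were drawn with matplotlib 3.10.9.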

Additional observations from a re-analysis of the deposited data

Results flagged for a closer look

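In the group of 4 Control libraries, 19 sets of values were looked at for a single library far from the rest, and chance alone picks out about 1 in 20. Myod1 in Control 3 stood at 21.7 CPM, while the other 3 lay between 14.0 and 14.8 CPM, and without Control 3 the log2 fold change of Myod1 in Unloading against Control was -0.43 (edgeR adjusted p = 0.0789). The summed skin genes in Control 2 stood at 290.0 CPM, while the other 3 lay between 3.00 and 4.20 CPM.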

How the results depend on the processing

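Calls of the 8 tested genes in Reloading against Control held under all 18 alternatives, and those in Reloading against Unloading under all but library totals alone, where 1 gene was lower (Mef2a, -0.19, was lost) and 4 higher (Mef2d, 0.41, was gained). Library totals alone turned the split of all calls from 49.3% to 82.7% higher against Unloading and from 50.9% to 80.2% against Control. In Unloading against Control, leaving out 1 library gave 0 to 1 members lower and 121 (without Unloading 1) to 1517 genes past the threshold, with 946 without Control 3. Leaving out an Unloading library assumes that the lone one varies like the other groups. Same-numbered libraries had deviations correlated over 0.1 in 0 of 7 pairs by title number and 3 of 6 by description number. The latter are all 3 same-numbered Control and Reloading pairs (0.142, 0.155, and 0.361 for both skin libraries). Control 1, whose description number no Reloading library shares, was also over 0.1 with Reloading 2 (0.106) and Reloading 3 (0.117). The other differently numbered Control and Reloading pairs ran from -0.219 to -0.0135. The replicate block by description changed no call of the 8 genes against Control. With the replicate block by title, 0 members were lower in Unloading than in Control (Myod1 -0.60, edgeR adjusted p = 0.101; Myog 0.10) and 1042 genes passed, and with the replicate block by description, Myog was at 0.25 there and Pax7 at 0.013 in Reloading against Unloading. All sign changes were in values that did not pass the test. With library totals alone, Pax7 was at 0.092 in Reloading against Unloading and Myf5 at 0.10 in Reloading against Control. With 1 library left out, log2 fold changes in Reloading against Unloading ran from -0.44 to 0.13 for Pax7 (0.05 without Reloading 2) and from -0.66 to 0.0084 for Myf5, and in Unloading against Control from -0.21 to 0.0029 for Myog, -0.15 to 0.51 for Myf5, -0.39 to 0.17 for Pax7, -0.014 to 0.060 for Mef2a and -0.0050 to 0.058 for Mef2c. In that comparison Mef2a was at -0.012 and Mef2c at -0.0034 without both skin libraries. Of 1728 refitted list counts, 177 moved by over 1.5 times, 88 of them with 1 library left out. The cause of these changes was not tested. Depth limits what can be said of Mymk, Myf5 and Pax7.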
